A study of Mus musculus with 4 samples.

Results

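The genes described here are 7 of the 41862 gene columns counted in 4 single-cell RNA libraries: the nucleotide receptor genes P2ry12, P2ry13, P2ry14 and P2ry6, the ATP-gated channel genes P2rx4 and P2rx7, and Entpd1, which codes for the ectonucleotidase CD39. They were chosen by name, on earlier values from the same libraries that set microglial P2ry12 and P2ry13 against pericyte P2ry14, so their levels by cell class are given as a description and no test supports them. All 4 libraries were made from dissociated CNS tissue of C57BL6 mice carrying the Aldh1l1CreERT2-TdTomato reporter, in which Cre recombinase driven by the astrocyte gene Aldh1l1 switches on a red fluorescent protein, and all were sorted as Tomato+LAMP+. EAE TRAIL+ and EAE TRAIL- came from mice at the peak of experimental autoimmune encephalomyelitis, a mouse model of multiple sclerosis that was induced here with MOG peptide in CFA (complete Freund's adjuvant). Naive TRAIL+ and naive TRAIL- came from naive mice, and TRAIL, a death ligand of the tumour necrosis factor family, was read as surface staining in every sort. The study used 3 naive and 3 EAE mice, with 1 library in each group, and no source used here says whether cells of several mice were pooled. No value below therefore has a replicate check, and its intervals cover counting error only.

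Extracellular nucleotides act on 2 receptor families. P2X receptors are cation channels opened by ATP, and P2Y receptors couple to G proteins and respond to ADP, UDP or UDP-sugars as well as ATP. In the brain, the ADP receptor P2Y12 is a hallmark of resting microglia and steers their processes towards damage, while ectonucleotidases on the cell surface break ATP and ADP down towards AMP and adenosine.

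Cell classes were rebuilt from marker genes after clustering without the purine genes. Of 7899 kept cells, 4148 were microglia-like and 187 astrocyte-like, although all 4 samples are labelled as astrocytes. The microglia-like class held 1637 of 1814 kept EAE TRAIL+ cells and 299 of 1597 kept EAE TRAIL- cells, against 1893 of 2229 naive TRAIL+ cells and 319 of 2259 naive TRAIL- cells. The pericyte-like class held 4 and 468 cells in EAE TRAIL+ and EAE TRAIL-, against 17 and 520 in naive TRAIL+ and naive TRAIL-. Microglial values can thus be set side by side in all 4 libraries, and pericyte values only in the TRAIL- libraries. Between 85 and 103 kept barcodes per library also occurred in another library.

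P2ry12, P2ry13 and P2ry14 are neighbours on chromosome 3. In GRCm38 with the GENCODE M21 annotation, P2ry14 spans chr3:59113855-59153618, P2ry13 spans chr3:59207892-59210882 and P2ry12 spans chr3:59216272-59262871. All 3 are on the minus strand inside Med12l, a gene on the plus strand. P2ry12 and P2ry13 lie 5389 bases apart with no coding gene between them, and P2ry13 and P2ry14 lie 54273 bases apart. Since it is not stated whether counting used strand, reads of Med12l cannot be told apart from theirs. The Med12l column reached at most 35.5 CPM in sums of at least 100000 UMIs, in naive TRAIL- microglia-like cells. Med12l reads counted under the receptor genes would not be in that column, and their part was not tested. P2rx7 (chr5:122643911-122691432) and P2rx4 (chr5:122707544-122729738) are also neighbours, both on the plus strand and 16111 bases apart. Entpd1 is at chr19:40612366-40741602 on the plus strand, and P2ry6 at chr7:100937630-100974649 on the minus strand, with P2ry2 as its next coding neighbour 21918 bases away.

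The promoters of the 3 chromosome 3 receptor genes are shown because these neighbours differ in the cell class that holds them. Each sequence runs from 250 bases before to 50 bases after a RefSeq start, on the minus strand of GRCm38.p6. Capitals mark GAGGAA, a sequence bound by the myeloid factor PU.1. For P2ry14 the start farthest upstream is shown.
P2ry12, chr3:59262936-59263235: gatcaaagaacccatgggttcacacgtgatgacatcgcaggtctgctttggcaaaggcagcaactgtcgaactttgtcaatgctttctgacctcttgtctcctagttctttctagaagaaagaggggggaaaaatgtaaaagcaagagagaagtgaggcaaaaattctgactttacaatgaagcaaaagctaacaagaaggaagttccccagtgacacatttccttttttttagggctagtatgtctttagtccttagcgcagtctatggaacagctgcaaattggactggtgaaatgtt
P2ry13, chr3:59210833-59211132: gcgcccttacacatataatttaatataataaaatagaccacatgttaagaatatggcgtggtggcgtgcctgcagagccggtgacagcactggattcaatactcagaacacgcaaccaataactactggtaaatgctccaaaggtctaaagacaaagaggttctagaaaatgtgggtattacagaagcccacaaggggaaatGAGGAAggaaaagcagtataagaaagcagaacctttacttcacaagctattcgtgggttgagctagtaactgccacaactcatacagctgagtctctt
P2ry14, chr3:59153443-59153742: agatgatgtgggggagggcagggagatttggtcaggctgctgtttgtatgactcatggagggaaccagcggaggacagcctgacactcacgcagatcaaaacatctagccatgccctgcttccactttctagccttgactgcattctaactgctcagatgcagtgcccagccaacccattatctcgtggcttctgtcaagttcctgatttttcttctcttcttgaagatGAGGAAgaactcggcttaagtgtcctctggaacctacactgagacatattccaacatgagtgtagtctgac
GAGGAA was searched on both strands, and 28.3% of 32851 RefSeq promoters of this length hold it. P2ry13 has it 48 bases before the start and P2ry14 has it 21 bases before the start. GAGGAA is not among the letters of the P2ry12 window, which does hold the shorter GGAA, in aagaaggaagttcc. The shorter GGAA was not searched for, so the P2ry12 window is not said to lack sites of the myeloid factor. Whether GAGGAA has a part in the cell class of these genes was not tested, and nothing is read from its presence or absence. The palindrome CACGTG, the E-box of basic helix-loop-helix factors, is in the P2ry12 window at 228 bases before the start and in 7.15% of all promoters. A RefSeq promoter was found for 6 of the 7 genes.

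P2ry12 and P2ry13 were microglial genes in every library. Levels are CPM (counts scaled to a total of 1e+06) of the unique molecular identifiers (UMIs, 1 per captured RNA molecule) summed over a class in a library. P2ry12 measured 1512 CPM in EAE TRAIL+ microglia-like cells and 913 CPM in EAE TRAIL- ones, against 2269 CPM in naive TRAIL+ ones and 2873 CPM in naive TRAIL- ones. P2ry13, whose receptor also answers ADP, measured 553 and 326 CPM in EAE TRAIL+ and EAE TRAIL-, against 794 and 697 in naive TRAIL+ and naive TRAIL-. For both genes both EAE libraries lay below both naive libraries. Microglia-like cells held 98.5% and 92.7% of all P2ry12 UMIs in EAE TRAIL+ and EAE TRAIL-, against 97.9% and 93.5% in naive TRAIL+ and naive TRAIL-. P2ry12 made up 73.2% and 73.7% of the joint UMIs of P2ry12 and P2ry13 in EAE TRAIL+ and EAE TRAIL- microglia-like cells, against 74.1% and 80.5% in naive TRAIL+ and naive TRAIL-. The naive TRAIL- share (78.6% to 82.3%) lay above the intervals of the other 3 libraries.

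P2ry14, the receptor gene for UDP-glucose and other UDP-sugars, was a pericyte gene. Pericyte-like cells carried 1708 CPM (95% Poisson interval 1594 to 1827, 843 UMIs) in EAE TRAIL- and 1383 CPM (1276 to 1497, 614 UMIs) in naive TRAIL-. They held 93.7% of the P2ry14 UMIs of EAE TRAIL- and 93.9% of those of naive TRAIL-. Microglia-like cells had 7.90 and 23.4 CPM in EAE TRAIL+ and EAE TRAIL-, against 3.53 and 19.7 in naive TRAIL+ and naive TRAIL-. The microglial trace was higher in both TRAIL- libraries, which are the ones with many pericyte-like cells. The pericyte marker list was also higher in the TRAIL- libraries: it summed to 21.6 and 171 CPM in EAE TRAIL+ and EAE TRAIL- microglia-like cells, against 22.8 and 168 in naive TRAIL+ and naive TRAIL-. In EAE TRAIL+ microglia-like cells the 26 P2ry14 UMIs stood beside 6 UMIs of the pericyte gene Rgs5, or 81.3% of the joint UMIs, against 15.7% in EAE TRAIL- pericyte-like cells. The part of free pericyte RNA in these traces was not tested.

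**Figure D1:**
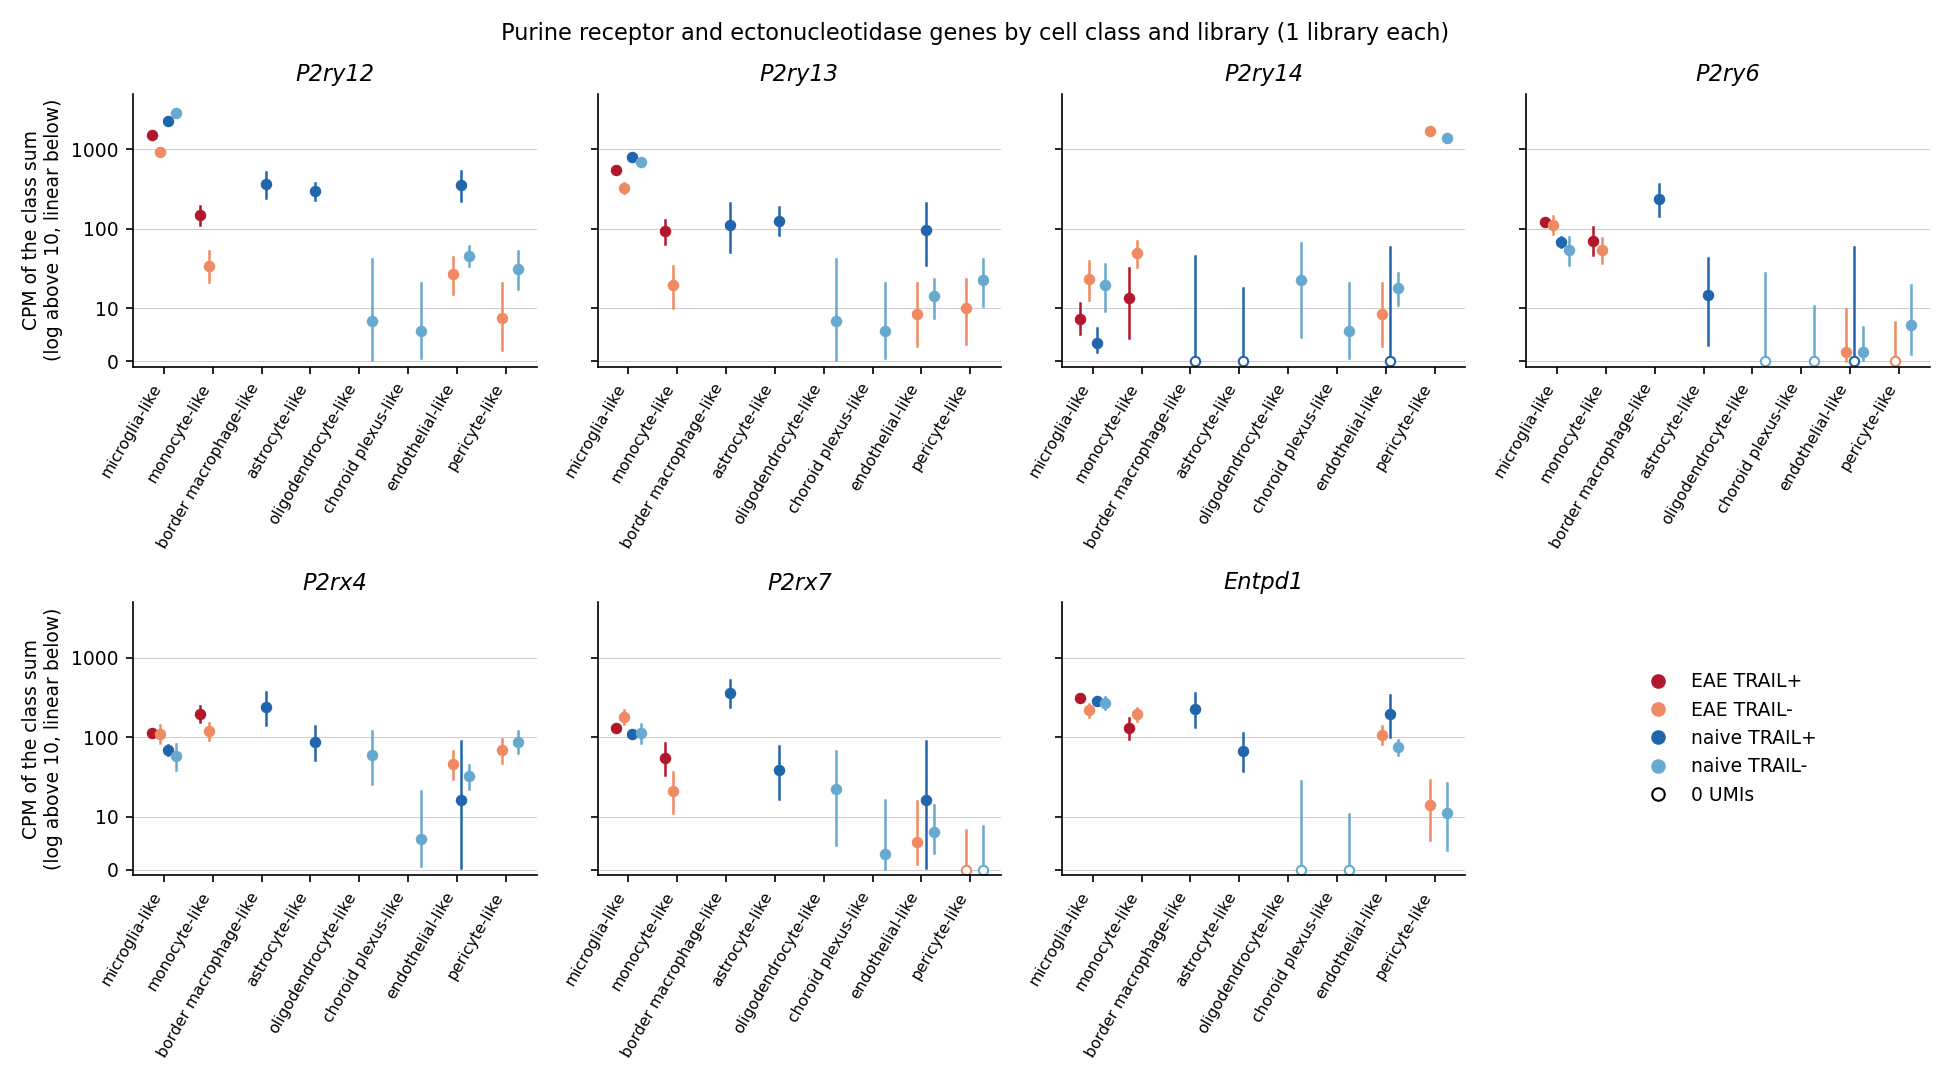
Level of each gene in CPM of the class sum (log above 10, linear below), by cell class, for libraries with at least 50 cells of the class. Bars are 95% Poisson intervals and open circles are 0 UMIs. P2ry12 and P2ry13 are highest in microglia-like cells in all 4 libraries, and P2ry14 stands at 1708 and 1383 CPM in pericyte-like cells of EAE TRAIL- and naive TRAIL-.

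The contrast between the microglial and the pericyte receptors ran over more than an order of magnitude in both directions. Within EAE TRAIL-, microglia-like over pericyte-like cells gave a ratio of 113 (95% Clopper-Pearson interval 43.8 to 415) for P2ry12 and 32.2 (13.6 to 100.3) for P2ry13, and P2ry14 was 72.9 times (43.2 to 134) higher in pericyte-like cells. In naive TRAIL- the ratios were 91.1 (54.1 to 167) for P2ry12 and 30.9 (16.6 to 65.1) for P2ry13, and P2ry14 was 70.1 times (37.9 to 147) higher in pericyte-like cells. These are the values the genes were chosen on, and nothing is read from them. The pericyte counts behind them were small, at 4 and 14 UMIs of P2ry12 in EAE TRAIL- and naive TRAIL-.

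The other members also split between these classes. P2rx7, the channel that opens the inflammasome route in macrophages, had 0 UMIs in 468 EAE TRAIL- and 520 naive TRAIL- pericyte-like cells. Against a floor of 3 counts for those zeros (6.08 and 6.76 CPM), the gene was at least 29.7-fold higher in microglia-like cells of EAE TRAIL- and at least 16.6-fold higher in naive TRAIL-. That bound was 15.5 in EAE TRAIL- without 1 microglia-like cell that held 52 of 108 P2rx7 UMIs, and 5.38 in naive TRAIL- with cells of at least 1000 UMIs. P2ry6, the UDP receptor linked to microglial phagocytosis, had 0 and 3 pericyte UMIs. Entpd1 was 15.3 (7.24 to 38.9) and 24.2 (10.1 to 75.6) times higher in microglia-like cells of EAE TRAIL- and naive TRAIL-, and the naive value, on 5 pericyte UMIs, ran between 11.3 and 58.0 over the alternatives. P2rx4, a channel found in lysosomes as well as on the surface, was the member that pericytes shared, at 68.9 CPM (34 UMIs) and 87.8 CPM (39 UMIs) in EAE TRAIL- and naive TRAIL-, against 110 and 57.2 CPM in the microglia-like cells of these libraries. Its ratio of microglia-like to pericyte-like cells was 1.60 (1.04 to 2.50) in EAE TRAIL- and 0.651 (0.388 to 1.08) in naive TRAIL-. Past 2-fold, at a mean of at least 50 CPM, 5 of 7 members were higher and 1 lower in microglia-like cells of EAE TRAIL-, where 25.1% of all genes were higher and 32.0% lower. In naive TRAIL- 4 of 6 were higher and 1 lower, where 22.5% of all genes were higher and 33.0% lower. Classes this different differ at most genes, and the rule used this contrast, so the counts carry no more than the values.

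**Figure D2:**
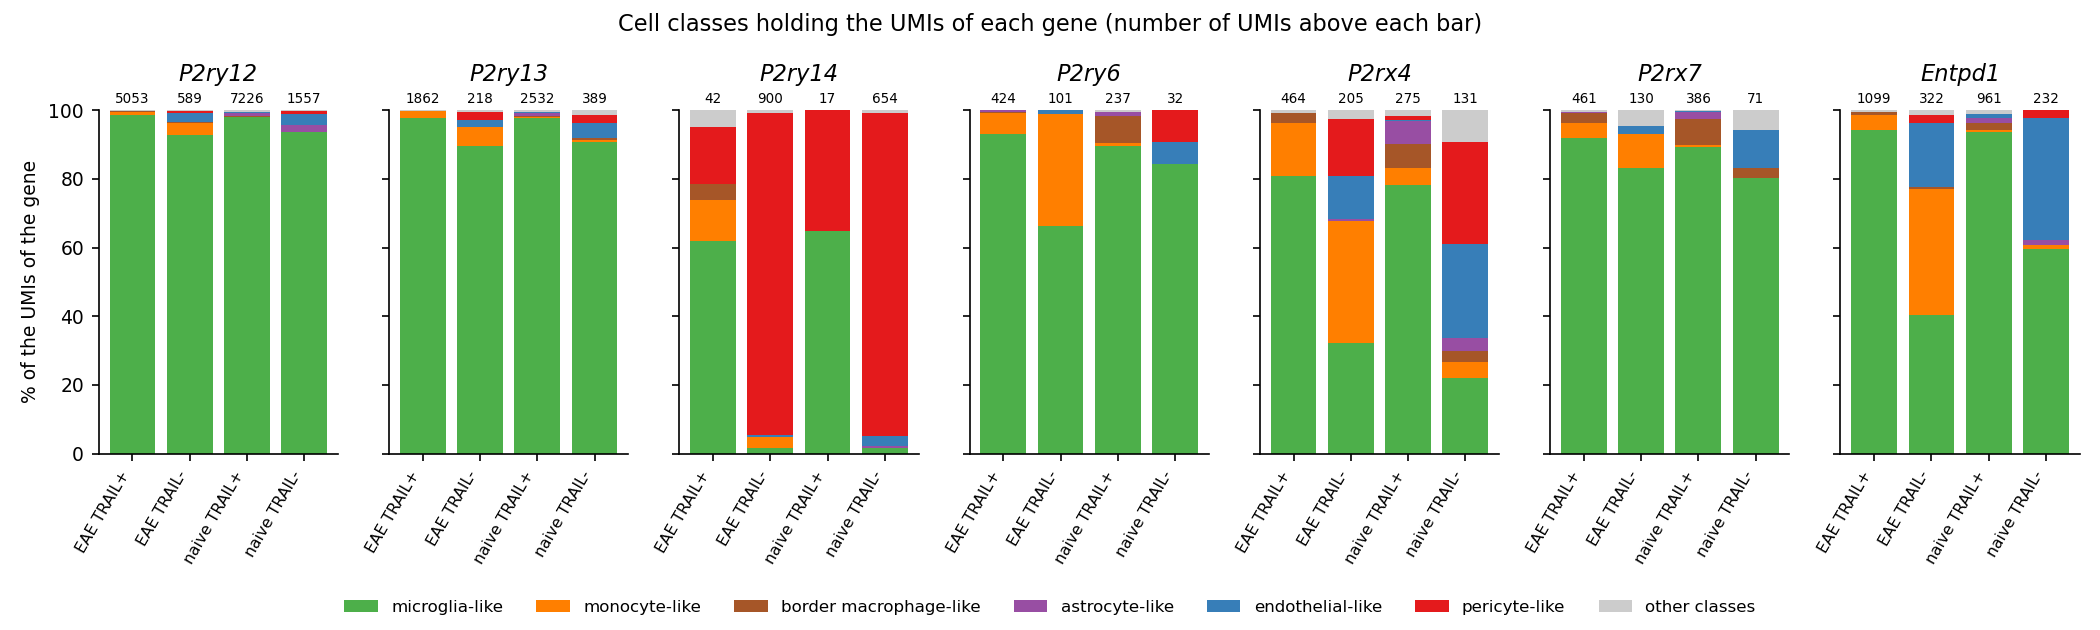
Share of each gene's UMIs held by each cell class, in % of the UMIs in kept cells of the library, with the number of UMIs above each bar. P2ry12 and P2ry13 are microglial in every library, P2ry14 is held at 93.7% and 93.9% by pericyte-like cells in EAE TRAIL- and naive TRAIL-, and P2rx4 and Entpd1 are spread over several classes in the TRAIL- libraries.

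Pericyte-like cells were mural cells of 2 kinds, and P2ry14 followed the pericytes rather than the smooth muscle. A finer clustering split off 23 EAE TRAIL- and 19 naive TRAIL- cells that were smooth muscle-like, with 4227 and 6543 CPM of the contractile actin gene Acta2, against 30.2 and 18.8 CPM in the remaining pericyte-like cells. P2ry14 measured 1775 CPM in 445 pericyte-like cells of EAE TRAIL- and 1421 CPM in 501 of naive TRAIL-, against 648 and 495 CPM in the smooth muscle-like cells. The ratio of pericyte-like to smooth muscle-like cells was 2.74 (1.74 to 4.57) in EAE TRAIL- and 2.87 (1.5 to 6.31) in naive TRAIL-, on 19 and 9 smooth muscle UMIs. The 17 pericyte-like cells of naive TRAIL+ had 259 CPM of P2ry14 on 6 UMIs, and their smooth muscle marker sum was 41164 CPM. The 4 cells of EAE TRAIL+ had 7 UMIs of P2ry14. Both groups are too small for a comparison.

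Pericyte P2ry14 was a little higher in EAE. The ratio of EAE TRAIL- to naive TRAIL- was 1.23 (1.11 to 1.37), and 1.25 (1.12 to 1.39) with the smooth muscle-like cells left out. After every cell was thinned to 500 UMIs, 43.8% of EAE TRAIL- and 36.5% of naive TRAIL- pericyte-like cells held a P2ry14 UMI, against 0.798% and 0.518% of endothelial-like cells, a class that should lack the gene. Without thinning the pericyte shares were 58.5% and 44.6%, at median depths of 971.5 and 799.5 UMIs, and endothelial-like cells had medians of 1043 and 898. P2rx4 was 0.784 (0.480 to 1.27), an interval that includes no difference. Neither of the 2 members at 50 CPM reached 2-fold, where 3.03% of all genes were higher and 4.07% lower in EAE. With 1 library on each side, the spread between mice is unknown, so no disease effect is claimed for P2ry14.

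Microglial P2ry12 and P2ry13 were lower in EAE than in naive mice in both sorts, and P2ry6 and P2rx4 were higher. In TRAIL+ the ratio of EAE to naive was 0.666 (0.642 to 0.691) for P2ry12 and 0.697 (0.656 to 0.741) for P2ry13. In TRAIL- it was 0.318 (0.288 to 0.351) for P2ry12 and 0.468 (0.391 to 0.559) for P2ry13. The ratio lay further below 1 in TRAIL- for both genes, and that difference between sorts was not tested. P2ry6 measured 120 and 112 CPM in EAE TRAIL+ and EAE TRAIL-, against 68.0 and 53.3 in naive TRAIL+ and naive TRAIL-, with ratios of 1.76 (1.48 to 2.09) in TRAIL+ and 2.10 (1.33 to 3.42) in TRAIL-. P2rx4 measured 114 and 110 CPM in EAE TRAIL+ and EAE TRAIL-, against 69.0 and 57.2 in naive TRAIL+ and naive TRAIL-, with ratios of 1.65 (1.39 to 1.96) and 1.93 (1.23 to 3.10). The EAE values of both genes lay above both naive values. In TRAIL- the P2ry6 and P2rx4 ratios rest on 27 and 29 naive UMIs, and the P2ry6 ratio was 0.960 when cells were thinned to 500 UMIs.

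P2rx7 and Entpd1 did not keep a clear direction in microglia-like cells, and the P2ry14 interval lay above 1 only in TRAIL+. P2rx7 had 129 CPM in EAE TRAIL+, against 111 in naive TRAIL+, a ratio of 1.16 (1.01 to 1.34). In EAE TRAIL- it had 181 CPM, against 112 in naive TRAIL-, but 52 of its 108 UMIs in EAE TRAIL- came from 1 cell of 2142 UMIs, where the next highest cell had 6. With the cell richest in P2rx7 left out of each library, EAE TRAIL- had 94 CPM, against 103 for naive TRAIL-, and the ratio was 0.914 in place of 1.61 (1.15 to 2.25). Entpd1 had 315 and 217 CPM in EAE TRAIL+ and EAE TRAIL-, against 288 and 272 in naive TRAIL+ and naive TRAIL-. Its ratios of 1.09 (0.997 to 1.19) in TRAIL+ and 0.799 (0.624 to 1.02) in TRAIL- both have intervals that include no difference. P2ry14 stayed at a trace, with ratios of 2.24 (1.07 to 5.02) in TRAIL+ and 1.19 (0.490 to 2.99) in TRAIL-. Over the alternatives these ran from 1.48 to 2.60 and from 0.895 to 1.24. In EAE TRAIL+ 7 of its 26 UMIs came from 1 cell, and naive TRAIL+ had 11 UMIs.

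**Figure D3:**
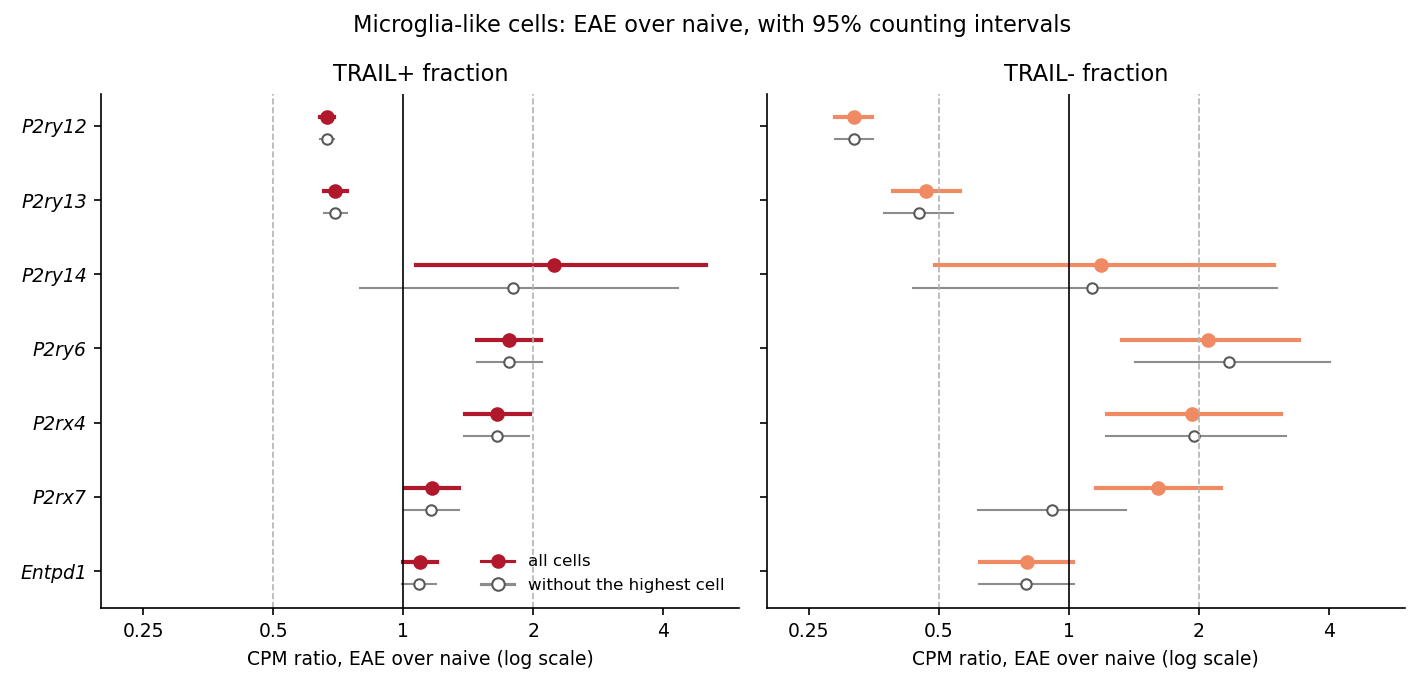
Ratio of CPM in EAE over naive microglia-like cells (log scale) for the 7 genes, in TRAIL+ and TRAIL-. Filled points use all cells and open points leave out the cell with most UMIs of the gene in each library, bars are 95% Clopper-Pearson intervals, and dashed lines mark 2-fold. P2ry12 and P2ry13 lie below 1 in both sorts, and P2rx7 in TRAIL- is at 1.61 with all cells and at 0.914 without the highest cell of each library.

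The TRAIL+ differences were then set against all genes. P2ry12 and P2ry13 had log2 ratios of -0.59 and -0.52 there, against a median of -0.05 over all genes at 50 CPM. None of 6 members at 50 CPM reached 2-fold between EAE TRAIL+ and naive TRAIL+, where 2.46% of all genes were higher and 0.467% lower. Between EAE TRAIL- and naive TRAIL- P2ry6 was past 2-fold higher and P2ry12 and P2ry13 past 2-fold lower, of 6 members, where 7.87% of all genes were higher and 8.33% lower. Scaling by the trimmed mean of M values (TMM) put P2ry6 at 2.0 and just short of that fold.

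The share of cells with a UMI differed in the same direction as the level. At 500 UMIs per cell, 44.5% and 29.1% of EAE TRAIL+ and EAE TRAIL- microglia-like cells held a P2ry12 UMI, against 62.1% and 61.4% in naive TRAIL+ and naive TRAIL-. Unthinned, the shares were 76.0% and 54.2%, against 86.5% and 80.9%, at median depths of 1886 and 1916 UMIs in EAE TRAIL+ and EAE TRAIL-, against 1551 and 1517 in naive TRAIL+ and naive TRAIL-. Pericyte-like cells, which should lack the gene, gave 0.427% and 0.769% at 500 UMIs in EAE TRAIL- and naive TRAIL-. Cells with at least 3 P2ry12 UMIs made up 7.70% and 5.02% of EAE TRAIL+ and EAE TRAIL-, against 13.4% and 21.6% of naive TRAIL+ and naive TRAIL-. P2ry13 was found in 22.1% and 12% of EAE cells, TRAIL+ and TRAIL-, against 30.6% and 23.2% of naive cells. The shares of cells with 1, 2 and at least 3 P2ry12 UMIs were each lower in EAE than in naive mice, in both sorts.

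P2ry13 was set against P2ry12 cell by cell. Among EAE TRAIL- microglia-like cells with a P2ry12 UMI, 20.7% (12.7 to 30.7) also held P2ry13, against 8.49% (5.11 to 13.1) of those without. With and without P2ry12, the shares were 25.1% (22.0 to 28.5) and 19.7% (17.2 to 22.4) in EAE TRAIL+. They were 32.4% (29.7 to 35.2) and 27.6% (24.4 to 31.0) in naive TRAIL+, and 26.0% (20 to 32.8) and 18.7% (12.2 to 26.7) in naive TRAIL-. The share was higher beside P2ry12 in 4 of 4 libraries and the pairs of intervals overlapped in 4 of 4.

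**Figure D4:**
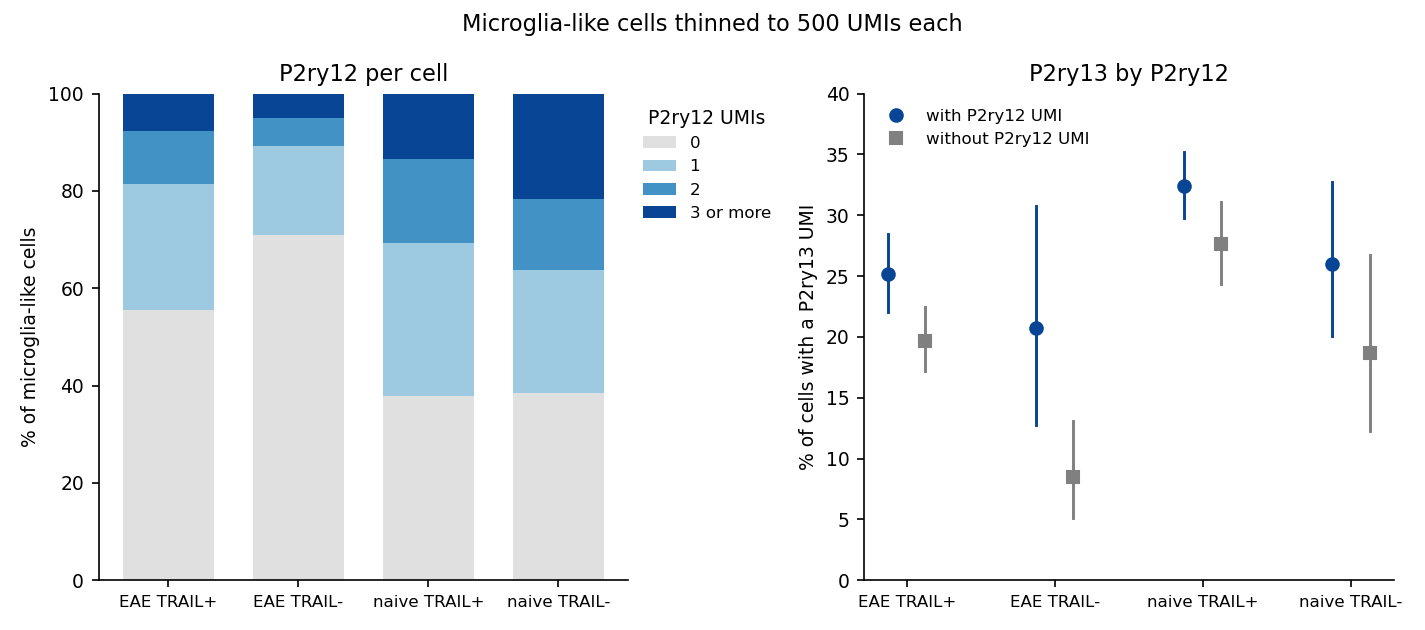
Microglia-like cells thinned to 500 UMIs each. Left, % of cells with 0, 1, 2 or at least 3 P2ry12 UMIs by library, where 55.5% and 70.9% of EAE TRAIL+ and EAE TRAIL- cells have 0, against 37.9% and 38.6% of naive TRAIL+ and naive TRAIL- cells. Right, % of cells with a P2ry13 UMI among cells with and without a P2ry12 UMI, with 95% Clopper-Pearson intervals.

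The microglia-like class was made of 3 clusters, and the disease states drew on different ones. Cluster 1, led by C4b, Hcar2 and the antigen presentation gene Cd74, held most EAE TRAIL- cells and the largest share of EAE TRAIL+ cells. Cluster 3, led by Gpr34, Fcrls and Cx3cr1, held most naive cells, and cluster 2 was led by Fcrls and Fscn1. None of the first 10 genes of cluster 1 was a microglial marker, and its name rests on 3 markers among its first 100 genes. P2ry12 was lowest in cluster 1 in every library, at 1078 and 721 CPM in EAE TRAIL+ and EAE TRAIL-, against 948 and 764 in naive TRAIL+ and naive TRAIL-. In cluster 3 it measured 2060 and 1771 CPM, against 2381 and 3058. Within cluster 1 the ratio of EAE to naive was 1.14 (0.859 to 1.54) in TRAIL+ and 0.943 (0.532 to 1.85) in TRAIL-. Both intervals include no difference, but naive mice gave only 31 and 9 such cells, so similar levels are not shown.

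The P2ry12 and P2ry13 ratios lay nearer to 1 within clusters 2 and 3 than over the whole class. In cluster 2 of TRAIL- the intervals of both genes include the class value. In TRAIL+ the P2ry12 ratio of EAE to naive was 0.838 in cluster 2 and 0.865 in cluster 3, against 0.666 over the class. In TRAIL- it was 0.367 (0.294 to 0.453) in cluster 2 and 0.579 (0.482 to 0.691) in cluster 3, against 0.318 over the class. P2ry13 gave 0.836 and 0.936 (0.839 to 1.04) in clusters 2 and 3 of TRAIL+, against 0.697 over the class. Its TRAIL- ratios were 0.575 (0.401 to 0.810) and 0.689 (0.473 to 0.978), against 0.468 over the class. P2ry6 gave 2.0 in cluster 2 and 1.27 (0.912 to 1.75) in cluster 3 of TRAIL+, against 1.76 over the class. In TRAIL- it gave 2.83 and 3.11, against 2.10 over the class, where cluster counts were 12 to 19 UMIs. P2rx4 gave 1.13 (0.837 to 1.51) and 1.48 (1.05 to 2.07) in clusters 2 and 3 of TRAIL+. In TRAIL- it gave 2.26 (0.968 to 5.34) and 1.49 (0.523 to 3.79). Entpd1 gave 1.27 (1.10 to 1.46) and 1.25 (1.06 to 1.47) in TRAIL+, and 0.614 (0.351 to 1.03) and 0.735 (0.392 to 1.29) in TRAIL-. Clusters are cut from the same cells, so these values describe the class and are no independent check.

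**Figure D5:**
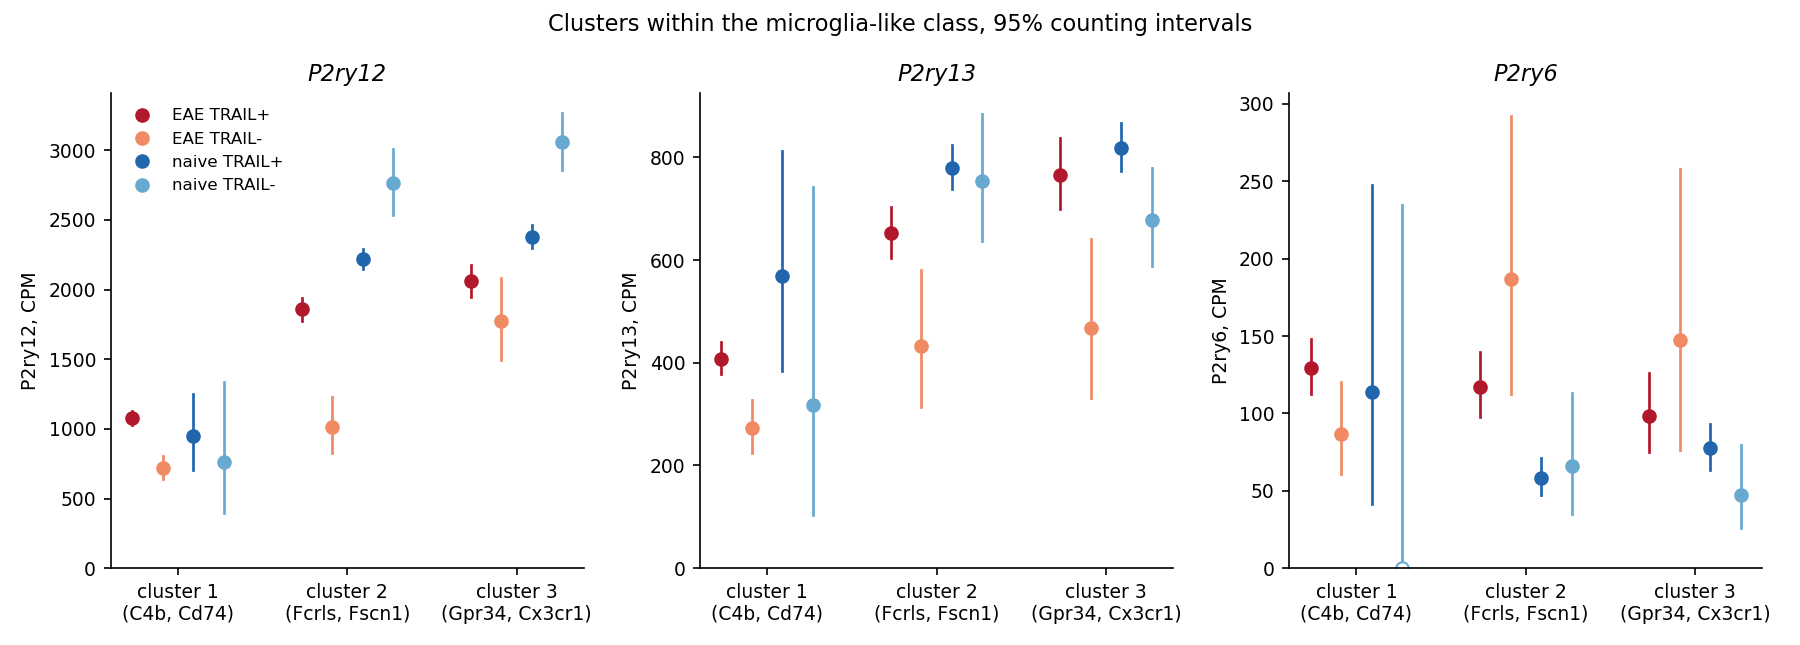
P2ry12, P2ry13 and P2ry6 in CPM by microglia-like cluster and library, with 95% Poisson intervals. P2ry12 is lowest in cluster 1 in every library, between 721 and 1078 CPM, while the open circle marks 0 UMIs of P2ry6 in 9 naive TRAIL- cells of cluster 1.

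EAE microglia-like cells were also split by MHC class II genes. Cells with at least 1 UMI of Cd74, H2-Aa, H2-Ab1 or H2-Eb1 at 500 UMIs were 830 of 1637 in EAE TRAIL+ and 184 of 299 in EAE TRAIL-. The split is a range and not a cell type, since 253 and 38 of these cells had exactly 1 such UMI. Cluster 1, with Cd74 among its leading genes, held 635 of the 830 and 163 of the 184. The split therefore overlaps the clusters and is no independent check of them. P2ry12 in cells with over cells without was 0.677 in EAE TRAIL+ and 0.669 in EAE TRAIL-, and P2ry13 was 0.665 and 0.749 (0.560 to 1.00). P2rx4 was 1.5 in EAE TRAIL+ and 0.966 in EAE TRAIL-, and Entpd1 was 0.881 and 1.5, so these genes had no common direction. P2rx7 was 0.269 in EAE TRAIL-, where the single cell with 52 UMIs had no MHC class II UMI, and 7.49% of all genes were past 2-fold lower there.

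P2ry12 differed between the TRAIL sorts in opposite directions in the 2 disease states. Cluster 1 held 45.1% of EAE TRAIL+ and 64.9% of EAE TRAIL- microglia-like cells, and its part in the difference was not tested. TRAIL+ over TRAIL- gave 1.66 (1.51 to 1.81) for P2ry12 in EAE and 0.790 (0.746 to 0.836) in naive mice. P2ry13 was higher in TRAIL+ in both, at 1.70 (1.46 to 1.98) in EAE and 1.14 (1.02 to 1.28) in naive mice. Entpd1 gave 1.45 (1.2 to 1.75) in EAE and 1.06 (0.885 to 1.28) in naive mice. P2ry6 and P2rx4 were close between sorts, at 1.07 and 1.03 in EAE and 1.28 and 1.21 in naive mice. No member at 50 CPM reached 2-fold in either contrast (0 of 6 each), where 0.746% of all genes were higher and 2.05% lower in EAE, and 0.315% were higher and 0.849% lower in naive mice. Of the microglia-like cells, 7 and 28 had under 1% of their UMIs in microglial markers in EAE TRAIL+ and EAE TRAIL-, against 3 in each naive library. Their microglial marker sums were 41079 and 37569 CPM in EAE TRAIL+ and EAE TRAIL-, against 41546 and 37697 in naive TRAIL+ and naive TRAIL-, and the part of such cells was not tested beyond leaving them out, which kept P2ry12 and P2ry13 on the same side of 1.

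Monocyte-like cells, 127 and 229 in EAE TRAIL+ and EAE TRAIL- against 18 and 16 in naive TRAIL+ and naive TRAIL-, were set beside microglia-like cells in the EAE libraries. Microglia-like over monocyte-like cells gave 10.1 (7.75 to 13.4) and 26.6 (17.2 to 43.3) for P2ry12 in EAE TRAIL+ and EAE TRAIL-, and 5.98 (4.27 to 8.67) and 16.6 (9.31 to 32.7) for P2ry13. Over the alternatives, the P2ry12 ratio ran from 10.1 to 24.3 in EAE TRAIL+ and from 24.1 to 41.9 in EAE TRAIL-, and the P2ry13 ratio from 4.27 to 7.65 and from 9.70 to 18.7. P2rx4 was 0.582 (0.451 to 0.759) in EAE TRAIL+, so it was higher in monocyte-like cells, and 0.925 (0.653 to 1.31) in EAE TRAIL-. Entpd1 in EAE TRAIL+ was 2.41 (1.80 to 3.29), and 1.13 (0.872 to 1.46) in EAE TRAIL-, and P2ry6 was 1.69 (1.14 to 2.62) and 2.08 (1.35 to 3.26). With thinned cells P2ry6 was 3.61 in EAE TRAIL+ and 0.862 in EAE TRAIL-. P2rx7 was 2.37 (1.51 to 3.92) in EAE TRAIL+, where 10 of 20 monocyte UMIs came from 1 cell, and 8.50 in EAE TRAIL- with the single high microglia-like cell included. Over the alternatives P2rx7 ran from 1.13 to 6.03 in EAE TRAIL+ and from 4.23 to 12.3 in EAE TRAIL-. Past 2-fold, 4 of 6 members at 50 CPM were higher in microglia-like cells of each library, where 15.1% of all genes were higher and 16.0% lower in EAE TRAIL+, and 16.0% and 16.9% in EAE TRAIL-. P2ry14 had 30 UMIs in EAE TRAIL- monocyte-like cells, or 49.0 CPM (33.1 to 70.0), above the 23.4 CPM of microglia-like cells. Beside the pericyte gene Rgs5, P2ry14 made up 35.7% (25.6 to 46.9) of the joint UMIs there, against 15.7% (14.8 to 16.7) in the pericyte-like cells of that library. The share in microglia-like cells of that library was close to the monocyte one, at 34.1% (20.1 to 50.6) on 14 P2ry14 UMIs. At 500 UMIs, 0.437% of the monocyte-like cells held P2ry14.

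Border macrophage-like cells carried the P2X channels and P2ry6. In the 58 such cells of naive TRAIL+, P2rx7 measured 361 CPM (242 to 519), P2rx4 237 (143 to 370) and P2ry6 237 (143 to 370), against 111, 69.0 and 68.0 in the microglia-like cells of that library. P2ry12 measured 361 CPM, against 2269, and P2ry14 had 0 UMIs. P2ry12 made up 76.3% of the P2ry12 and P2ry13 UMIs there, 78.6% in endothelial-like and 70.1% in astrocyte-like cells, against 74.1% in microglia-like cells. Of the joint UMIs of P2ry12 and the microglial marker C1qb it made up 6.67%, 32.4% and 20.1% in these classes, against 29.5% in microglia-like cells. The library is 84.9% microglia-like, and the part of free microglial RNA in these values was not tested. Of the 22 P2ry12 UMIs in endothelial-like cells of naive TRAIL+, 15 came from 1 cell. Astrocyte-like cells of naive TRAIL+ read 296 CPM of P2ry12, and 9.93% of them held a UMI at 500 UMIs, against 62.1% of microglia-like cells.

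Endothelial-like cells carried Entpd1 and P2rx4. Entpd1 measured 107 CPM (81.4 to 137) in EAE TRAIL- and 74.2 CPM (59.1 to 92.0) in naive TRAIL-, a ratio of 1.44 (1.01 to 2.03). Over the alternatives that ratio ran from 1.05 to 1.69. P2rx4 measured 46.2 CPM in EAE TRAIL-, against 32.2 in naive TRAIL-, a ratio of 1.44 (0.832 to 2.44). Entpd1 was the only member at 50 CPM there (0 of 1 past 2-fold), where 2.15% of all genes were higher and 2.67% lower. These cells held 18.6% of the library's Entpd1 UMIs and 12.7% of its P2rx4 UMIs in EAE TRAIL-, against 35.8% and 27.5% in naive TRAIL-. Choroid plexus-like and oligodendrocyte-like cells of naive TRAIL- had 0 UMIs of Entpd1 and of P2ry6.

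Other genes listed by name for nucleotide signalling are given with the class that had the highest level. Of 37 such genes, 26 reached 20 CPM in at least 1 class. Astrocyte-like cells of naive TRAIL+ had the highest levels of Gja1, the gap junction and hemichannel gene connexin 43 (2559 CPM), of adenosine kinase Adk (253), of Entpd2 (194), of the volume channel gene Lrrc8a (155), and of Entpd6, Slc29a2 and P2ry1. Pericyte-like cells had the highest level of the adenosine receptor gene Adora2a, at 150 CPM in EAE TRAIL- and 246 in naive TRAIL-, a ratio of 0.611 (0.448 to 0.828), and of P2rx1 and Calhm2. Monocyte-like cells of the EAE libraries led for the nucleoside phosphorylase gene Pnp (838 CPM), the adenosine receptor gene Adora2b (99.7), Entpd7, Nt5e, P2ry10, Slc28a2 and Panx1. Endothelial-like cells led for Alpl and P2ry2, oligodendrocyte-like cells for Entpd5, Adora1 and Enpp1, and microglia-like cells for Adora3, Enpp3 and the nucleoside transporter genes Slc29a1 and Slc29a3. Several of these leads rest on few UMIs in the leading class, with 4 for Enpp1, 6 for P2ry1 and 9 each for Slc29a2 and Panx1. Entpd6 and Adora1 had 12 each. Such leads do not assign a gene to a class.

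In endothelial-like cells the nucleoside transporter genes differed in direction. Slc29a1 measured 16.0 CPM in EAE TRAIL- and 62.6 in naive TRAIL-, a ratio of 0.255 (0.112 to 0.513), and Slc29a3 measured 60.4 and 12.5, a ratio of 4.83 (2.52 to 9.73). Adk was 0.409 (0.212 to 0.734) and Alpl, the phosphatase that completes the path to adenosine, was 1.17 (0.935 to 1.46).

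In microglia-like cells the lists were read at 10 CPM and 2-fold, where 3.87% of all genes were higher and 0.875% lower in TRAIL+, and 14.3% higher and 11.8% lower in TRAIL-. Of 3 genes listed by name as P2Y receptors at that floor in TRAIL+ none passed. Of 6 in TRAIL- P2ry2, P2ry6 and P2ry10 were higher and P2ry12 and P2ry13 lower, where the P2ry2 and P2ry10 calls rest on few UMIs. Of 3 ectonucleotidase genes in each sort, Nt5e (CD73, which makes adenosine from AMP) was lower in TRAIL+ at 15.8 CPM in EAE against 42.0 in naive, a ratio of 0.376 (0.267 to 0.522), while in TRAIL- it was 0.787 (0.341 to 1.81). None of 2 P2X genes passed in either sort. The transporter gene Slc29a1 was 0.566 (0.478 to 0.668) in TRAIL+ and 0.609 (0.408 to 0.904) in TRAIL-, and Adora3 was 1.28 (1.06 to 1.56) and 1.29 (0.722 to 2.36). Of 7 inflammasome genes downstream of P2rx7, none passed in TRAIL+, and in TRAIL- Pycard, Casp1, Il18 and Gsdmd were higher and Nlrp3 lower, at 278 CPM in EAE against 669 in naive. Of 10 genes of P2Y12 signalling, none passed in TRAIL+, and the potassium channel gene Kcnk13 (0.381) and the kinase gene Pik3cg (0.424) were lower in TRAIL-.

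Homeostatic and activation genes of microglia are given beside P2ry12. Of 10 homeostatic genes none passed 2-fold in TRAIL+ (median log2 ratio of -0.31, against 0.03 for all genes), and Cx3cr1, Siglech, Fcrls, Sall1 and Gpr34 were lower in TRAIL- (median -0.72, against -0.02). Gpr34 was 0.602 in TRAIL+ and 0.376 in TRAIL-, Cx3cr1 was 0.598 and 0.443, and Tmem119 was 1.04 and 0.833. Of 10 activation genes 9 were higher in each sort, all but Lpl, with TRAIL+ cells carrying 2453 CPM of Cd74 in EAE, against 170 in naive mice, and 1469 CPM of Apoe, against 436. Monocyte markers moved in the same libraries: their list of 11 genes summed to 751 and 863 CPM in EAE TRAIL+ and EAE TRAIL- microglia-like cells, against 504 and 369 in naive TRAIL+ and naive TRAIL-, with 26038 CPM in EAE TRAIL- monocyte-like cells. Their part in the P2ry12 difference was not tested.

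Over the 14 class sums of at least 100000 UMIs, genes were ranked by likeness to each member, with Pearson's r of log2(CPM + 10) among 8566 genes. Sums of 1 library share its depth and its free RNA, so r is a description. P2ry12 was most like Gpr34 (0.993), Fcrls (0.992) and P2ry13 (0.990), and P2ry13 most like Fcrls, P2ry12 and Gpr34. P2ry14 was most like Cd248 (0.984), Pla1a (0.983) and Steap4 (0.981), all highest in pericyte-like cells of EAE TRAIL-. P2ry6 was most like Spint1, Cmklr1 and Cd300c2, P2rx7 like Lpcat2, Hps4 and Stk10, and Entpd1 like Mcl1, Icam1 and Sbno2. P2rx4 had the weakest match, at 0.932 for Mfsd1, then Tmem219 and Gm38380.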

How the data were processed

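The deposited tables hold UMI counts per barcode and gene, with no scaling by the authors, from inDrops version 3 libraries per the labels' protocols. Bowtie and GRCm38 are named per the submitters' processing notes, and no source used here gives the version of Bowtie, the annotation or the use of strand. The libraries held 3984975 and 2856696 UMIs in EAE TRAIL+ and EAE TRAIL-, against 3967680 and 3109387 in naive TRAIL+ and naive TRAIL-. Barcodes with at least 500 UMIs and at most 20% mt- UMIs were kept: 1814 and 1597 in EAE TRAIL+ and EAE TRAIL-, against 2229 and 2259 in naive TRAIL+ and naive TRAIL-. Cells were clustered with scanpy 1.11.5 (2000 variable genes without purine genes, 30 components, 15 neighbours, Leiden resolution 1) and clusters were named from marker lists. Scrublet marked 4 and 28 doublets in EAE TRAIL+ and EAE TRAIL-, against 4 and 41 in naive TRAIL+ and naive TRAIL-, which were kept and left out in an alternative.

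Counts were summed by class and library and divided by the sum (CPM). Levels have exact Poisson intervals, ratios and shares exact Clopper-Pearson intervals at 95%. With 1 library per group no test was run, and a gene counts as past the fold at 2-fold and a mean of at least 50 CPM. The ratio script was tested on simulated data. TMM factors came from edgeR 4.0.16, used for scaling only. The text names all 7 members, other purine genes of at least 20 CPM in a sum of at least 100000 UMIs, and the 3 genes most like each member. Genes named for the homeostatic, activation, inflammasome and P2Y12 lists are those past 2-fold, with a few named after their values were seen. Members and lists were chosen with earlier results of these data known.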

Additional observations from a re-analysis of the deposited data

Results flagged for a closer look

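P2ry12 in microglia-like cells differed in direction between disease states: TRAIL+ over TRAIL- was 1.66 (95% interval 1.51 to 1.81) in EAE and 0.790 (0.746 to 0.836) in naive mice. Entpd1 in microglia-like cells differed in direction between sorts: EAE over naive was 1.09 (0.997 to 1.19) in TRAIL+ and 0.799 (0.624 to 1.02) in TRAIL-. Neither difference was tested, since each group has 1 library. Both Entpd1 intervals include 1, and under TMM scaling the TRAIL+ value was 0.977.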

How the results depend on the processing

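Under 12 alternatives, 11 of them planned and 1 (leaving out the cell with most UMIs of the gene) chosen after seeing the data, 633 values were recomputed for 63 results. Of these 585 stayed within counting error or 1.5 times the count, 41 moved and 7 changed direction. The ratios of EAE to naive for P2ry12 and P2ry13 stayed below 1 in both sorts under every alternative run. TMM scaling, which shifted all genes by between -0.16 and 0.26 on the log2 scale, gave 0.597 for P2ry12 and 0.624 for P2ry13 in TRAIL+ EAE over naive, 1.92 for P2ry12 in EAE TRAIL+ over TRAIL-, and 0.927 for P2ry12 and 1.34 for P2ry13 in naive TRAIL+ over TRAIL-. Clusters at resolution 2 gave 0.692 for P2ry12 in TRAIL+ EAE over naive. Thinning to 500 UMIs gave 0.359 for P2ry13 in TRAIL- EAE over naive and 2.38 in EAE TRAIL+ over TRAIL-. It also reversed P2ry6 in TRAIL- EAE over naive (0.960) and, for microglia-like over monocyte-like cells of EAE TRAIL-, P2ry14 (1.28) and P2ry6 (0.862), on few UMIs. Requiring 1% marker UMIs reversed P2rx7 in TRAIL- EAE over naive (0.871) and in EAE TRAIL+ over TRAIL- (1.31), as did leaving out the highest cell of each sum (0.914 and 1.35). For microglia-like over pericyte-like cells, removing doublets and cells under 250 genes gave 155 for P2ry13 in EAE TRAIL-, and 74.0 for P2ry13 and 173 for P2ry12 in naive TRAIL-, while at least 1000 UMIs gave 15.9 for P2ry13 and 50.2 for P2ry12 in naive TRAIL-. Where no cause is given it was not tested. Genes past the fold in microglia-like cells numbered 94 in TRAIL+, against 223 with a floor of 20 CPM and 449 at 1.5-fold. In TRAIL- they numbered 527, against 846 with thinned cells, 1342 at 20 CPM and 1328 at 1.5-fold. In pericyte-like cells they numbered 274, against 725 at 1000 UMIs, 1019 at 20 CPM and 892 at 1.5-fold. No paired analysis was possible because each group has 1 library and no result comes from a test. Depth limits P2ry6, P2rx4 and P2ry14 most, with 10 to 29 UMIs in naive TRAIL- microglia-like cells.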
